A study of Mus musculus with 43 samples.

Results

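The enzymes that trim and branch N-glycans were followed across a pooled in vivo CRISPR knockout screen in CD8+ T cells. The members are all library genes whose symbols start with Mgat1 to Mgat5 or with Man1 or Man2 followed by a, b or c. No gene that fits this rule was left out for its values, but the rule was chosen with earlier results of these data known. The rule gave 17 genes with 85 sgRNAs, out of 2078 genes and 10640 sgRNAs in the library, of which 250 sgRNAs were nontargeting controls. Each gene had 5 sgRNAs.

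N-glycans are sugar trees attached to asparagine residues of proteins in the endoplasmic reticulum. They arrive there rich in mannose and are trimmed by glucosidases and mannosidases in the endoplasmic reticulum and the Golgi apparatus. N-acetylglucosaminyltransferases then extend them, most of these by opening a branch that galactose and sialic acid can cap. On T cells, branched N-glycans on the T cell receptor and its co-receptors bind galectins and are known to influence receptor clustering, signalling threshold and surface retention. The order of the steps matters for the genes below, because MGAT1 acts before MGAT2, and MGAT2 before the full set of complex branches can form.

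The cells were CD90.1+ OT-I T cells, that is, CD8+ T cells with a receptor for ovalbumin, from Cas9 knockin mice, activated and transduced in vitro with the lentiviral metabolic library, so that every group, T0 included, carried Cas9 and the library. T0 cells were taken on the day of adoptive transfer (3 libraries). The other cells were sorted 7 days after transfer into mice with orthotopic KPC_OVA tumours, a mouse pancreatic cancer line that expresses ovalbumin, under treatment with IgG or with anti-PD-1. The recipients were Cas9 knockin mice too, on the same strain background as the cell donors. The mice were of either sex. Their age is stated in weeks, as a range for T cell donors and a wider range for all mice, not by group. Under IgG there were 3 libraries each of primary tumour, lung, spleen, draining and non-draining lymph nodes, and 2 each of liver and peritoneal metastases. Under anti-PD-1 there were 3 libraries of each site except liver, which had 1. Of 43 samples, 41 had values, since the authors had excluded 2 after quality control. The title of replicate 2 from peritoneal metastases under anti-PD-1 names that site, but its tissue label names spleen. This library was used by its title, and results that rest on it are also given without it. How many mice contributed to a library was not given, so p-values measure the spread between libraries.

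The measure was the sgRNA signal, a read count that the authors had normalised to the nontargeting sgRNAs and batch-corrected. A gene's level was the mean over its sgRNAs of log2(signal + 1), minus the mean of the nontargeting sgRNAs of the same library, and a change is the difference of this level from T0. An enriched gene is one whose knockout was overrepresented among the recovered cells, and a depleted gene the opposite. Calls were made with limma where the p adjusted over all 2078 genes by Benjamini-Hochberg did not exceed 0.05. The read depth behind a signal is unknown. An sgRNA counted as at its lowest value where its signal was its minimum over the libraries of that replicate number. Another of these libraries had to share this minimum, and an unshared minimum was not counted. The share of sgRNAs at this lowest value was at most 0.0188% in T0 and 45.4% to 91.6% in lymph nodes. Lung libraries had 10.6% to 42.6% of sgRNAs there, and those of the other 4 organs 2.78% to 24.1%. Lymph nodes were therefore fitted apart from the other 5 organs. In each fit the organs share the 3 T0 libraries.

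The sgRNAs measured here are listed by identifier only, so their sequences are not shown. For a later single-cell screen of the same study, 11 sgRNAs were newly designed against 4 of the members, Man1a2, Man1b1, Mgat2 and Mgat4d. Those against Mgat2 and Man1b1, the members with the highest values in lymph nodes, are shown to place the cuts in these genes. They are not the sgRNAs whose signals are reported. Each is written 5′ to 3′ with its PAM, read from GRCm38, in capitals.
Mgat2 gRNA1: gaagttcaactggtacaccaGGG
Mgat2 gRNA2: tgtaatggccgaaggagtcaGGG
Man1b1 gRNA1: gagcaccattcgcatcttagGGG
Man1b1 gRNA2: agaagtgacgagcattcagtTGG
Man1b1 gRNA3: ggttaccaaaagtttgcttgGGG
Each sequence had 1 match with an NGG PAM on the assembled chromosomes. Both Mgat2 sgRNAs lie on the minus strand of chromosome 12, at chr12:69184919-69184938 and chr12:69185286-69185305. The RefSeq transcript NM_146035.2 has 1 exon, and they cut 20.2% and 47.8% of the way through its coding sequence. The Man1b1 sgRNAs lie on the plus strand of chromosome 2, at chr2:25345041-25345060, chr2:25345528-25345547 and chr2:25343280-25343299, in coding exons 7, 8 and 6 of the 13 exons of NM_001029983.2.

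Mgat1 was depleted in every organ and treatment outside the lymph nodes. It encodes the transferase that adds the N-acetylglucosamine with which hybrid and complex N-glycans begin. Over the 10 groups the change was -5.39 ± 0.45 on the log2 scale (SE, adjusted p = 1.15e-11, limma), and it ranged from -4.61 in peritoneal metastases IgG to -6.13 in liver IgG. All 26 libraries of the 5 organs lay below all 3 T0 libraries. It was the 1 member depleted in the average over groups, where 334 of 2078 genes (16.1%) were depleted, and the 1 member depleted in all 10 groups, as 174 genes (8.37%) were. Ranked from the most negative averaged change, Mgat1 was number 33 of the 2078 genes. In the single groups Mgat1 was depleted along with 14.3% of genes in tumour IgG, 14.4% in tumour anti-PD-1, 16.2% and 17.2% in lung IgG and anti-PD-1, 13.1% and 9.58% in liver, 13.7% and 15.3% in peritoneal metastases and 13.6% and 14% in spleen. Over all genes and the 10 groups this was 14.1%.

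By library, the Mgat1 change in primary tumour was -4.95, -5.33 and -5.46 under IgG and -4.52, -5.74 and -5.68 under anti-PD-1. In lung it was -5.23, -4.87 and -5.75 under IgG and -5.57, -6.22 and -6.16 under anti-PD-1. In liver it was -5.71 and -6.56 under IgG and -4.89 in the single anti-PD-1 library. The treatments overlapped in tumour and lung, and the liver anti-PD-1 value lay above both IgG values. In peritoneal metastases the change of Mgat1 was -5.24 and -3.97 under IgG and -5.18, -6.34 and -4.11 under anti-PD-1, the weakest depletion of Mgat1 among the 26 libraries being the IgG value of -3.97. In spleen it was -4.73, -6.86 and -5.16 under IgG and -5.37, -6.21 and -5.43 under anti-PD-1. Relative to their mean, the T0 libraries lay at -0.56, -0.03 and 0.59, a spread far smaller than the change. Without the peritoneal library with the spleen label, Mgat1 changed by -4.65 in peritoneal metastases under anti-PD-1 (adjusted p = 1.28e-06, limma).

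The sgRNAs of Mgat1 agreed in direction. Their changes averaged over the 10 groups were -6.49, -5.90, -5.75, -5.02 and -3.80, and 4 of the 5 were depleted in a fit across all 10640 sgRNAs, where 800 sgRNAs (7.52%) were. The fifth, s_02178, had a change of -3.80 ± 1.25 (SE) and missed the threshold (adjusted p = 0.0698, limma). Of the 130 values of Mgat1 sgRNAs in the 26 libraries, 86 (66.2%) were at the lowest value of the sgRNA, against 11.4% of the values of all sgRNAs. The most depleted sgRNA by this count, s_02176, was at the lowest value in 25 of 26 libraries after signals of 115, 157 and 167 in T0. A fold this close to the lowest value depends on the pseudocount, and with log2(signal + 10) the averaged change of Mgat1 was -3.35 (adjusted p = 4.75e-12, limma).

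Mgat2 moved the other way, and with the chosen settings its calls were all under anti-PD-1. When the median of the sgRNAs replaced their mean, Mgat2 was also enriched in lung IgG. It encodes the transferase that opens the second arm and so turns hybrid into complex N-glycans. It was enriched in lung anti-PD-1 (1.99 ± 0.56 on the log2 scale, SE, adjusted p = 0.00831, limma), where 20 of 2078 genes (0.962%) were enriched. It was enriched in spleen anti-PD-1 (2.31 ± 0.56, adjusted p = 0.0022), where 9 genes (0.433%) were enriched, and in liver anti-PD-1 (2.63 ± 0.80, adjusted p = 0.0264), where 6 genes (0.289%) were. The liver value rests on 1 library, whose spread is taken to be that of the other groups. Mgat2 was the 1 member enriched in any of the 10 groups. In those where no member was, the enriched genes were 0.144% in tumour anti-PD-1 and in peritoneal metastases anti-PD-1, and under IgG 0% in tumour, 1.68% in lung, 0.192% in liver, 0.0481% in peritoneal metastases and 0.289% in spleen. Over all genes and groups 0.419% of values were enriched, and 7 of 2078 genes (0.337%) were enriched in at least 3 of them. In the average over the 10 groups its change was 1.18 ± 0.42 (SE) and just missed the threshold (adjusted p = 0.0516, limma), while 4 genes (0.192%) passed it.

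In primary tumour the Mgat2 change was 0.51, 0.41 and 0.72 in the IgG libraries and 1.09, 1.40 and 1.14 in the anti-PD-1 libraries. In lung it was 1.73, -1.42 and 0.02 under IgG and 1.86, 2.57 and 1.53 under anti-PD-1. In liver it was 1.06 and 0.94 under IgG and 2.63 under anti-PD-1. In tumour and liver every anti-PD-1 library lay above every IgG library, whereas in lung 1 IgG library reached into the anti-PD-1 range. In peritoneal metastases the Mgat2 change was 0.24 and 0.09 under IgG and 1.07, 1.52 and 0.80 under anti-PD-1. In spleen it was 0.73, 0.93 and 0.59 under IgG and 1.62, 2.77 and 2.55 under anti-PD-1. Both organs again showed no overlap between treatments. The share of all genes without such overlap was not counted, so this is a description only. The T0 libraries lay at 0.16, -0.02 and -0.14, and 23 of the 26 organ libraries lay above all of them.

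Against T0 the tumour and peritoneal changes of Mgat2 under anti-PD-1 were 1.21 (adjusted p = 0.238) and 1.13 (adjusted p = 0.29) in limma, and the 5 IgG changes ranged from 0.11 to 1.0 with none called. Without the library labelled spleen, the peritoneal value of Mgat2 was 0.94 (adjusted p = 0.734, limma). The calls depend on the zero point of the scale. With the signals used as deposited, the median of all genes shifted from -0.14 to -1.14 in the average over groups, and Mgat2 was at 0.61 in lung, 1.23 in liver and 1.30 in spleen under anti-PD-1, none called (adjusted p = 0.377, 0.339 and 0.112, limma). With the nontargeting median as zero the lung call was also lost (1.17, adjusted p = 0.105, limma). Leaving out lung anti-PD-1 replicate 2 ended that call too (1.69, adjusted p = 0.0515, limma). The liver call was lost when the shared lowest values were set to 0 (2.63, adjusted p = 0.0536, limma). Among single nontargeting sgRNAs, 7 of 250 were called against T0 in lung IgG and 4 in lung anti-PD-1, compared with 0 in the average over the 10 groups and at most 1 in any other group, and their part in the lung values of Mgat2 was not tested.

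With each of the 29 libraries left out in turn the averaged change of Mgat2 stayed between 1.02 and 1.26, while its adjusted p crossed the threshold in some of these fits. Without the 6 lung libraries Mgat2 was enriched in the average (1.22, adjusted p = 0.00209, limma), and it was also enriched without lung IgG replicate 2 alone (1.26, adjusted p = 0.0105, limma), without lung IgG replicate 1 (1.10, adjusted p = 0.0239) and without lung anti-PD-1 replicate 3 (1.21, adjusted p = 0.0422). The same held without spleen anti-PD-1 replicate 1 (1.22, adjusted p = 0.0415, limma).

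The sgRNAs of Mgat2 all had positive changes, namely 0.68, 1.15, 1.25, 1.41 and 1.43 averaged over the 10 groups, and none passed the test on its own, as 8 of 10640 sgRNAs (0.0752%) did. For orientation, the single nontargeting sgRNAs had an SD of 0.69 on this measure. The sgRNA with the highest T0 signals, s_08435, went from 800, 827 and 444 in the T0 libraries to a median of 1237 in anti-PD-1 libraries and 645 in IgG libraries. The sgRNA s_08433 went from 390, 330 and 189 to medians of 910 and 160. For s_08434 the medians were 371 under anti-PD-1 and 325 under IgG, after T0 signals of 543, 371 and 229, so this sgRNA differed little between treatments. Only 3 of the 130 values of Mgat2 sgRNAs (2.31%) were at the lowest value of their sgRNA.

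The comparison of the treatments asks whether PD-1 blockade changes which knockouts persist. Mgat2 was higher under anti-PD-1 than under IgG by 1.34 ± 0.29 on the log2 scale over the 5 organs (SE, adjusted p = 0.0142, limma). It was the 1 member called, among 18 genes that were higher (0.866%), and no member was among the 10 that were lower (0.481%). In the same comparison of single sgRNAs, 2 of the 250 nontargeting sgRNAs were called, beside 135 of all 10640 sgRNAs. The Mgat2 difference was positive in 12 of 12 pairs of libraries with the same organ and replicate number, from 0.13 to 4.0, and both extremes were in lung. The share of all genes with such a count was not taken and the pairs share replicate numbers, so the count is descriptive. Outside liver, the 2 libraries of such a pair did not deviate together from their group means (median correlation -0.07 over 11 pairs). By organ the Mgat2 difference was 0.66 in tumour, 1.88 in lung, 1.63 in liver, 0.97 in peritoneal metastases and 1.56 in spleen, none called on its own (lowest adjusted p = 0.0547, in lung, limma). It was 1.21 without the lung libraries (adjusted p = 0.0067), 1.27 without liver (adjusted p = 0.0281) and 1.30 without the library labelled spleen (adjusted p = 0.0189, limma).

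Libraries of one replicate number and treatment deviated together across organs. Their deviations from the group means had a median correlation of 0.17 over 41 pairs of libraries, over 0.1 in 34 of them, so the organs are not separate replicates of a treatment. With number and treatment as a random block, the Mgat2 difference was 1.32 and no longer passed (adjusted p = 0.0777, limma), and 4 of 2078 genes were called. Averaged within each replicate number it was 0.53, 2.03 and 1.26. These 3 differences were tested against 0 and gave a mean of 1.27 that did not pass (unadjusted p = 0.00737, adjusted p = 0.766, limma), with 2 genes called. The 5 sgRNAs of Mgat2 differed between treatments by 3.36, 1.66, 1.55, 0.21 and -0.07. When the median of the sgRNAs in each library replaced their mean, the difference was 0.80 (adjusted p = 0.226, limma). The source of the shared deviations was not tested.

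Mgat1 showed no such treatment difference. It differed by -0.05 ± 0.31 (SE) between anti-PD-1 and IgG (adjusted p = 0.974, limma), and was higher under anti-PD-1 in 3 of 12 pairs. The remaining members were spread around 0, with the 2 largest differences in Mgat4c, a gene named as a homologue of the MGAT4 branching enzymes (0.73, higher in 10 of 12 pairs, adjusted p = 0.148), and Man2c1, a cytosolic mannosidase (-0.72, higher in 3 of 12 pairs, adjusted p = 0.349, limma). Mgat4d, which encodes an inhibitor of MGAT1, was at -0.64 (adjusted p = 0.233, limma) and was higher in 2 of 12 pairs. The median difference of the 17 members was 0.10, beside 0.04 over all genes.

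The later branching enzymes and their homologues were not called with the chosen settings, though the paper's algorithms had selected Mgat4d from this screen. Mgat5 encodes the transferase of the β1,6 branch, a preferred site for polylactosamine chains. Its averaged change was 0.69 ± 0.50 (SE, adjusted p = 0.75, limma), positive in all 10 groups (0.12 to 1.67) and in all 5 sgRNAs (0.02 to 1.18). In primary tumour the Mgat5 libraries were at 0.46, 0.86 and -0.13 under IgG and at 0.24, 0.61 and 1.12 under anti-PD-1. In lung they were at 2.90, 2.53 and -0.42 under IgG and at 1.35, -0.02 and 0.94 under anti-PD-1, so that the highest group value, 1.67 in lung IgG, came from 2 of 3 libraries (adjusted p = 0.0872, limma). In liver Mgat5 was at 0.77 and -0.53 under IgG and 0.90 under anti-PD-1. In peritoneal metastases the values were 0.52 and 0.11 under IgG and 0.81, -0.56 and 1.47 under anti-PD-1, and in spleen 0.75, 1.83 and 0.38 under IgG and 0.22, 0.26 and 1.05 under anti-PD-1. The treatments overlapped in each organ with more than 1 library per treatment, and T0 lay at 0.07, 0.17 and -0.24.

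Among the branching enzymes that compete with or add to MGAT5, Mgat3, which adds the bisecting N-acetylglucosamine, had an averaged change of 0.12 and a range over groups of -0.95 to 0.75. Mgat4a and Mgat4b, which open the β1,4 branch on the other arm, had averaged changes of 0.17 and -0.01. Mgat4b had the lowest group value of these enzymes, -1.82 in spleen IgG (adjusted p = 0.0652, limma), while it was at 1.10 in lung anti-PD-1. Mgat4c was at 0.01, Mgat4d at 0.54 and Mgat5b, a homologue of Mgat5 studied mainly in brain, at -0.09. With the chosen settings none of the 7 later or homologous enzymes including Mgat5 passed the test in any group.

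With the chosen settings the mannosidases were not called either, though the paper's algorithms had selected Man1a2 and Man1b1. Of the class I enzymes, which remove α1,2-linked mannose before MGAT1 acts, Man1c1 had the largest averaged change (0.61 ± 0.43, SE, adjusted p = 0.713, limma). In primary tumour the Man1c1 libraries were at -0.25, 0.24 and 0.66 under IgG and 0.24, 1.24 and 0.17 under anti-PD-1. In lung they were at 0.03, 1.95 and 1.26 under IgG and at 1.59, 1.73 and 1.31 under anti-PD-1, where the group value of 1.54 was the highest for this gene (adjusted p = 0.0582, limma). The Man1c1 values in liver were -0.39 and 0.88 under IgG and 0.94 under anti-PD-1. In peritoneal metastases they were -0.86 and 0.88 under IgG and 0.82, 0.68 and -0.03 under anti-PD-1, and in spleen 0.03, 1.23 and 0.27 under IgG and -0.17, 0.75 and 0.94 under anti-PD-1. The treatments overlapped except in liver, where the single anti-PD-1 value lay just above both IgG values, and T0 lay at 0.01, -0.14 and 0.12.

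The other class I mannosidases were Man1a at -0.27, Man1a2 at 0.48 and Man1b1, the endoplasmic reticulum enzyme that also marks misfolded glycoproteins for degradation, at -0.42. One Man1b1 sgRNA stood at -2.04 and the others between there and 0.67, none called. Man2a1 and Man2a2, the Golgi α-mannosidases II that act between MGAT1 and MGAT2, were at -0.32 and -0.61, and Man2a2 was below 0 in 9 of the 10 groups and lowest in spleen anti-PD-1 (-1.72, adjusted p = 0.186, limma). That group value rested on replicate 2, since its libraries were at -0.00461, -4.70 and -0.44, and without this library the averaged change of Man2a2 was -0.46. Man2b1, a lysosomal mannosidase, and Man2c1 break glycans down rather than build them, and were at 0.00 and -0.30. The median averaged change of the 17 members was 0.00, beside -0.14 over all genes.

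No member differed between the 5 organs by a moderated F-test, in which 9 of 2078 genes (0.433%) passed, and the smallest p among members was that of Mgat4b (unadjusted p = 0.00697, adjusted p = 0.318, limma). An F-test of whether the treatment difference depended on the organ called 0 of 2078 genes, and for Mgat2 it gave an adjusted p of 0.999 (limma). This does not show that the organs acted alike. The authors had also corrected the signals for batches between organs, and whether this removed organ differences was not tested.

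Lymph nodes gave no calls for members or for any other gene (0% in each of the 4 groups). At an unadjusted p under 0.05 there were 212, 234, 146 and 126 genes in draining IgG, draining anti-PD-1, non-draining IgG and non-draining anti-PD-1 nodes, 3, 4, 3 and 2 of them members. The highest member values were those of Mgat2 in draining nodes under anti-PD-1, at 4.67, 6.83 and 3.58 against T0 (5.03 ± 1.07, SE, adjusted p = 0.0645, limma). Under IgG the draining nodes were at 3.36, 3.58 and 1.86 for Mgat2 (2.93, adjusted p = 0.279). In non-draining nodes Mgat2 was at -1.12, -1.59 and -0.89 under IgG and at -0.56, 2.67 and 4.0 under anti-PD-1. The Mgat2 values of draining nodes all lay above T0 and those of non-draining nodes under IgG all below it.

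Man1b1 had the other high values in lymph nodes, while its changes in the 10 groups of the 5 organs were -1.40 to 0.22. In draining nodes its libraries were at 3.77, 5.68 and 4.56 under IgG (4.67, adjusted p = 0.0857, limma) and at 4.48, 4.15 and 1.98 under anti-PD-1. In non-draining nodes they were at 1.92, 2.54 and 3.42 under IgG and at 3.82, 4.53 and 2.25 under anti-PD-1. All 12 libraries lay above T0. Of the 60 values of Man1b1 sgRNAs in lymph nodes, 25% were at the lowest value of the sgRNA, and of those of Mgat2 30%, against 71.8% for all sgRNAs. Unshared minima are not counted in these shares, so the shares do not measure how many sgRNAs were detected. Of the nontargeting sgRNAs, whose mean serves as zero, 46% to 94% were at the lowest value in these libraries, and their mean lay 0.40 to 3.83 above their median on the log2 scale. With the nontargeting median as zero 5 values of members passed in the lymph nodes, 3 of Man1b1, 1 of Mgat2 and 1 of Mgat4b. The share of all genes that passed with this zero is not given here, so this count is no result about the members in particular. With the signals as deposited Man1b1 was at -0.30 in draining IgG nodes and Mgat2 at -0.03 in draining anti-PD-1 nodes. Man1b1 was then at -1.53 in draining anti-PD-1, -3.07 in non-draining IgG and -2.05 in non-draining anti-PD-1 nodes. Both Man1b1 and Mgat2 were then depleted in both non-draining groups, so the direction of these values also turned with the zero point. Mgat1 was at -1.53 to -2.75 against T0 in the lymph node groups, none called, with 93.3% of its sgRNA values at the lowest value. Its direction turned with the zero point. With the median of all sgRNAs as zero Mgat1 was at 0.44 in draining and 0.43 in non-draining nodes under anti-PD-1 and at -0.50 and -0.20 under IgG, none called, and with the signals as deposited it was depleted in all 4 groups (-6.75 to -7.72).

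Other genes of the N-glycan pathway in the library were taken from a list of 21. This list was drawn up with earlier results of these data known, so its counts are descriptive. In the average over groups 9 of the 21 were depleted, as 16.1% of all genes were, and 1 was enriched, as 0.192% were, and the median was -0.33 beside -0.14 over all genes. The depleted genes act before, beside and after the MGAT1 step. Mogs (-3.28) and Ganab (-3.23) encode the glucosidases that trim glucose before any mannose is removed. Gfpt1 (-5.20), Gnpnat1 (-3.04), Pgm3 (-3.93) and Uap1 (-3.41) encode the hexosamine pathway that makes UDP-N-acetylglucosamine, the donor used by all MGAT enzymes. Slc35a2 (-4.92), Slc35a1 (-4.18) and B4galt1 (-3.80) carry UDP-galactose and CMP-sialic acid into the Golgi and add galactose to the branches. These genes also serve other glycans than N-glycans. Adjusted p values ranged from 1.28e-10 for Slc35a2 to 0.000119 for Gnpnat1 (limma).

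The enriched gene was B3gnt2, which makes polylactosamine chains on branches and other glycans (1.74 ± 0.45, SE, adjusted p = 0.00325, limma). It was also called in 5 of the 10 groups, and 25 of 26 libraries lay above all T0 libraries. The call of B3gnt2 was lost with the signals as deposited (0.74, adjusted p = 0.168, limma). The other 11 genes were not called in the average, among them Slc35a3, a Golgi transporter linked to UDP-N-acetylglucosamine (0.93, adjusted p = 0.136), Fut8, which adds core fucose (-0.96, adjusted p = 0.332), Gfpt2, the isoenzyme of Gfpt1 (0.36), St6gal1, a sialyltransferase (-0.06), and the lysosomal genes Manba, Aga, Hexa, Neu1, Fuca1 and Glb1 (-0.33 to 0.27).

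Beside Mgat2, 2 genes of the pathway list differed between treatments in the same comparison. Slc35a3 was higher under anti-PD-1 by 1.13 ± 0.27 (SE, adjusted p = 0.0261, limma) and in 12 of 12 pairs, and Fut8 differed by -1.65 ± 0.34 (adjusted p = 0.0106) and was lower in 12 of 12 pairs. As for Mgat2, the share of all genes with such a count of pairs was not taken, so these counts are descriptive too. With number and treatment as a random block neither Slc35a3 nor Fut8 passed (adjusted p = 0.132 and 0.061, limma). Within replicate numbers Slc35a3 gave a mean of 1.05 (adjusted p = 0.766) and Fut8 of -1.87 (adjusted p = 0.0548, limma). The call of Slc35a3 was lost in 7 of 14 alternatives in all, and in 4 of the 29 fits that left out 1 library, namely tumour IgG, peritoneal metastases IgG, liver IgG or liver anti-PD-1 replicate 3 (highest adjusted p = 0.0673, limma). That of Fut8 was lost in 5 of 14 alternatives and in 0 of these 29 fits.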

How the data were processed

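The sgRNA cassette in genomic DNA of sorted T cells was sequenced. The authors counted reads with MAGeCK, normalised them to the 250 nontargeting sgRNAs, corrected batches between organs with ComBat and deposited a signal per sgRNA and library that is not a whole count. ComBat settings were not given in the sources used here. No count test was run, and depth, counting intervals and floors are unknown. The members and gene lists were chosen with earlier results of these data known. The values of 1 gene of the pathway list are not reported here.

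Gene means of log2(signal + 1), centred on the nontargeting mean, were fitted with limma 3.58.1 in R 4.3.3, 1 mean per group, in 1 fit of 29 libraries (T0 and 5 organs) and 1 of 15 (T0 and lymph nodes). Values in every library are given for members called in the average or in any of the 10 groups, filled to 4 by moderated t; those of Man1b1 in lymph nodes were added after its values were seen. Scripts were tested on simulated data. Sequences from the study's guide list were placed on GRCm38.p6 with RefSeq annotation in Python 3.11.15. Alternatives were another pseudocount, other zero points, the median of sgRNAs, the lowest 10% of T0 sgRNAs left out, shared lowest values set to 0, other sets of libraries, replicate blocks, library weights and each library left out. Those without lung or liver, with a random block, with treatment differences within number, and the treatment-by-organ test were chosen after seeing the data.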

Additional observations from a re-analysis of the deposited data

How the results depend on the processing

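Depletion of Mgat1 in all 10 groups held under every alternative in which its groups were fitted. The median of all genes in the average over groups was -0.14, and moved to -0.55 with the nontargeting median as zero, to -1.14 with signals as deposited and to 0.10 with the median of sgRNAs. Counts of members that differed by over 1.5 times are given here, and the causes were not tested. The shares of all genes or sgRNAs called with these settings are not given, so the counts are no result about the members in particular.

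Enriched values of members in the 10 groups, 3 with the chosen settings, were 0 with signals as deposited and with all 41 libraries in 1 fit, 7 with the median of sgRNAs, 6 with library weights and 14 when only the group compared and T0 were fitted. Those 7 were Mgat2 in lung IgG and in lung, liver and spleen anti-PD-1, Mgat4d in both lung groups and Man1c1 in lung IgG. The 6 were Mgat2 in every organ under anti-PD-1 and Mgat4c in liver anti-PD-1. The members behind the 14 are not named here. Depleted values, 10, became 31 as deposited. Members enriched in the average, 0, became 1 with log2(signal + 10), the median of sgRNAs or without the lung libraries (Mgat2 each time), 4 with library weights (Man1c1, Mgat2, Mgat4d and Mgat5) and 2 with the 3 differences within replicate number (Mgat2 and Mgat5). Members depleted in it, 1, became 2 (Man2a2 with Mgat1) as deposited and with library weights. For the organ test, 1 member (Man2b1) was called as deposited. Mgat2, the 1 member higher under anti-PD-1, was lost (0 members) with the median of sgRNAs, all 41 libraries in 1 fit (adjusted p = 0.38, limma), the random block and the within-number differences. In lymph nodes, 5 member values were enriched with the nontargeting median, the median of all sgRNAs and library weights, and 6 with all libraries in 1 fit, where 1 was depleted. As deposited, 63 were depleted there, in libraries where 71.8% of the values of all sgRNAs were at the lowest value. Enriched genes of the pathway list, 1, became 0 as deposited and with all libraries in 1 fit, 2 without the lung libraries (Slc35a3 and B3gnt2) and 3 with library weights (Gfpt2, Slc35a3 and B3gnt2). Slc35a3, higher under anti-PD-1, was lost as deposited, with the median of sgRNAs, without the lowest 10% of T0 sgRNAs, with all libraries in 1 fit, without liver and in both fits by number and treatment, and Fut8 with the nontargeting median, the median of sgRNAs, all libraries in 1 fit and the same fits by number and treatment. Enriched member sgRNAs, 0, became 11 with library weights.

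With each library left out in turn, enriched values in the 10 groups ran from 2 to 5 and depleted ones from 9 to 11, members enriched in the average from 0 to 1, lymph node values from 0 to 1, pathway genes enriched from 0 to 1 and depleted member sgRNAs from 4 to 5. The call of Mgat2 in liver anti-PD-1 was lost without T0 replicate 2 (adjusted p = 0.0584) or T0 replicate 3 (adjusted p = 0.07, limma), and also with shared lowest values set to 0 (adjusted p = 0.0536, limma), and 5 values were enriched without lung IgG replicate 3 (Man1a2 and Mgat5 in lung IgG in addition). B3gnt2 was lost without T0 replicate 3.

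The replicate number as a block changed none of these counts and left Mgat2 at 1.20 in the average (adjusted p = 0.055) and 1.34 between treatments (adjusted p = 0.014, limma). The numbers did not pair libraries across treatments: 39 of 118 pairs of libraries with the same number correlated over 0.1, and 34 of these were among the 41 pairs that also shared the treatment. By this measure 21 of 28 libraries correlated best with their own number.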
